A study of Mus musculus with 8 samples.

Results

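Abi3 and the genes of the WAVE actin regulatory complex were followed in colonic epithelial cells of mice carrying either of 2 strains of Bacteroides thetaiotaomicron (B. theta). The set holds 9 genes, which are the Abi adaptors Abi1, Abi2 and Abi3, the WAVE proteins Wasf1 and Wasf2, the scaffold subunits Nckap1, Cyfip1 and Cyfip2, and the GTPase Rac1. Every probe set annotated to one of these symbols and to no other gene was taken, which gave 19 of the 45037 probe sets of the array and 8 of the 18193 genes with a probe set of their own. Cyfip1 was matched by no such probe set and is not analysed here. Abi3 entered the set because its probe set 1452928_at separated the groups on these same arrays, so the group differences of the members are given below as a description, without a test.

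The WAVE complex is a cytoplasmic switch that controls where a cell builds branched actin. At rest a WAVE protein is held inactive by a Cyfip and a Nckap subunit and joined to them by an Abi adaptor and a small subunit, Brk1. When GTP-bound Rac1 binds the Cyfip subunit, the WAVE protein is released and turns on the Arp2/3 complex, which nucleates the branched filaments of lamellipodia, the broad protrusions that migrating epithelial cells extend, and of forming cell junctions. Abi proteins also join the complex to kinases of the Abl family and to other signalling adaptors, and Abi3 is best known from hematopoietic cells, microglia included.

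The arrays compared 4 mice colonized with BTΔMAFF, a mutant of B. theta that lacks the genes of the Mucus-Associated Functional Factor (MAFF), and 4 mice colonized with the wild-type strain, BTWT. The deletion is in the bacterium and no mouse gene was altered. All 8 mice were C57BL/6 males kept under specific pathogen-free conditions, had received metronidazole and ciprofloxacin, were colonized at 8 wk of age and were sampled 4 wk later, at 12 wk, and no uncolonized mice were among these arrays. The cells were sorted as live (negative for propidium iodide), CD45-negative and EpCAM-positive, and the cDNA was amplified before it was hybridized to 8 arrays. Each array stands for 1 mouse, and which mice shared a cage the sources used here do not say. The deposited values are log2 intensities from which the median of the 8 arrays was subtracted, probe set by probe set. A value of 1 therefore means 2-fold over that median, and the values carry neither the level of a gene nor a detection call, so that genes are not compared with each other by level.

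Across the arrays as a whole, limma placed 0 of 45037 probe sets under the adjusted p threshold of 0.05 and 2295 under the same threshold unadjusted. The methods' test placed 0 and 1721 there. On the leading principal component, with 29.4% of the variance, BTΔMAFF replicate 4 and BTWT replicate 2 scored far above all others. The array medians ran from -0.030 to 0.041 in BTΔMAFF and from -0.0072 to 0.038 in BTWT, with the highest value of each group in those same arrays. The 3′ minus 5′ values of control probe sets gave a reading of RNA length relative to the other arrays. For Gapdh they ran from -0.18 to 0.17 in BTΔMAFF and from -0.25 to 0.018 in BTWT. For actin they ran from -0.035 to 0.083 in BTΔMAFF and from -0.062 to -0.017 in BTWT. The controls were centred as well, so these values compare arrays and do not show whether the RNA was intact. No batch or scan date was given in the sources used here.

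Abi3, the member around which the set was built, lies on chromosome 11 from 95830072 to 95842476 in GRCm38.p6 and is represented by 2 probe sets. At 1452928_at it stood at 0.69, 0.79, 0.94 and 1.30 in BTΔMAFF replicates 1 to 4, against -0.75, -0.94, -0.69 and -0.87 in BTWT replicates 1 to 4. The groups did not overlap. Abi3 averaged 0.93 ± 0.27 in BTΔMAFF and -0.81 ± 0.11 in BTWT (SD, n = 4 mice each), a difference of 1.74 (SE 0.14) on the log2 scale, or 3.35-fold higher in BTΔMAFF. The lowest BTΔMAFF mouse and the highest BTWT mouse were 1.38 apart. They lie at equal distance on either side of 0 because the centring puts 0 midway between the fourth and the fifth value. Each of the 4 BTWT mice lay close to the others, within a range narrower than that of the BTΔMAFF mice, in which replicate 4 was highest.

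By size the Abi3 difference ranked 39th among all probe sets, of which 327 differed by more than 1 on the log2 scale in either direction. By the gap between the groups it ranked 6th among the 702 probe sets in which every BTΔMAFF array lay above every BTWT array. These 702 were 1.56% of all probe sets, and 574 probe sets, 1.27%, lay wholly below. The thresholds of the study's legend, a fold over 2 with an unadjusted p under 0.05, were passed in limma by 129 probe sets higher in BTΔMAFF (0.286%) and 118 lower (0.262%), and in the methods' unpaired test by 117 and 98. Among the 19 member probe sets, 1 lay wholly above in BTΔMAFF, 0 lay wholly below and 18 overlapped. The first of these is the Abi3 probe set that the choice of members fixed, so nothing is read from that count.

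The other Abi3 probe set did not show the difference. At 1446191_at the values were -0.035, -0.029, 0.21 and 0.027 in BTΔMAFF and -0.0064, 0.024, 0.0064 and -0.024 in BTWT. Both groups lay near 0 except for BTΔMAFF replicate 3, and the groups overlapped. The difference was 0.043 (SE 0.056), and the values spanned 1.18-fold over the 8 arrays, against 4.72-fold at 1452928_at. Without a detection call it cannot be told whether 1446191_at measured any Abi3 transcript in these cells. The Abi3 result therefore rests on 1 probe set.

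Markers of other cells were read beside Abi3, since it is known from leukocytes and the cells had been sorted. Of all 18193 genes, each by its most variable probe set, limma placed 3.37% higher and 2.35% lower in BTΔMAFF at an unadjusted p under 0.05. Of the 27 leukocyte markers, 26 were measured, and 0 were higher and 0 lower at this threshold. Their mean value ran from -0.065 to 0.087 in the BTΔMAFF arrays and from -0.057 to 0.23 in the BTWT arrays. Ptprc, which encodes the CD45 that the sort excluded, differed by 0.0067 (SE 0.031, adjusted p = 0.918 from limma). The ranges of the groups overlapped for the leukocyte list. The largest single values in it were Laptm5 at 3.07 and Lcp1 at 2.54, both in BTWT replicate 3. Of its 26 genes, 19 (73.1%) followed the array medians, against 34.4% of all genes. For genes of this profile, described further below, a difference near 0 says little. Of the 17 stromal and endothelial markers, 0 were higher and 1, Pdgfrb, was lower by 1.16 (SE 0.33, adjusted p = 0.674 from limma) with 1 of its 2 probe sets of that sign. Col3a1, Dcn and Col1a1, matrix genes of fibroblasts, had positive differences of 1.14 (SE 0.49), 1.03 (SE 0.68) and 0.77 (SE 0.45). Their groups overlapped, and all were highest in BTΔMAFF replicate 2. Each has 2 probe sets, of which both had that sign in Col1a1 but only 1 in Col3a1 and 1 in Dcn. Over the 17 markers, 6 differences were positive and 11 negative, with a median of -0.016. The mean of the stromal list ran from 0.0011 to 0.41 in BTΔMAFF and from -0.21 to 0.19 in BTWT. All 10 epithelial markers were measured, and 3 were higher at an unadjusted p under 0.05, the keratins Krt19 and Krt20 by 0.22 and 0.32 and the microvillus protein Vil1 by 0.40. Their mean ran from -0.0079 to 0.14 in BTΔMAFF and from -0.12 to 0.017 in BTWT, while Epcam itself differed by -0.10 (SE 0.23, adjusted p = 0.840 from limma). Of the 10 epithelial markers, 7 had a positive difference, and the ranges of the list mean overlapped. Because the centring removed levels, it cannot be read which markers were at 0. The part of these stromal and epithelial markers in the Abi3 difference was not tested. In RNA from a sorted population, fewer cells of a type and less RNA per cell cannot be told apart.

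**Figure D1:**
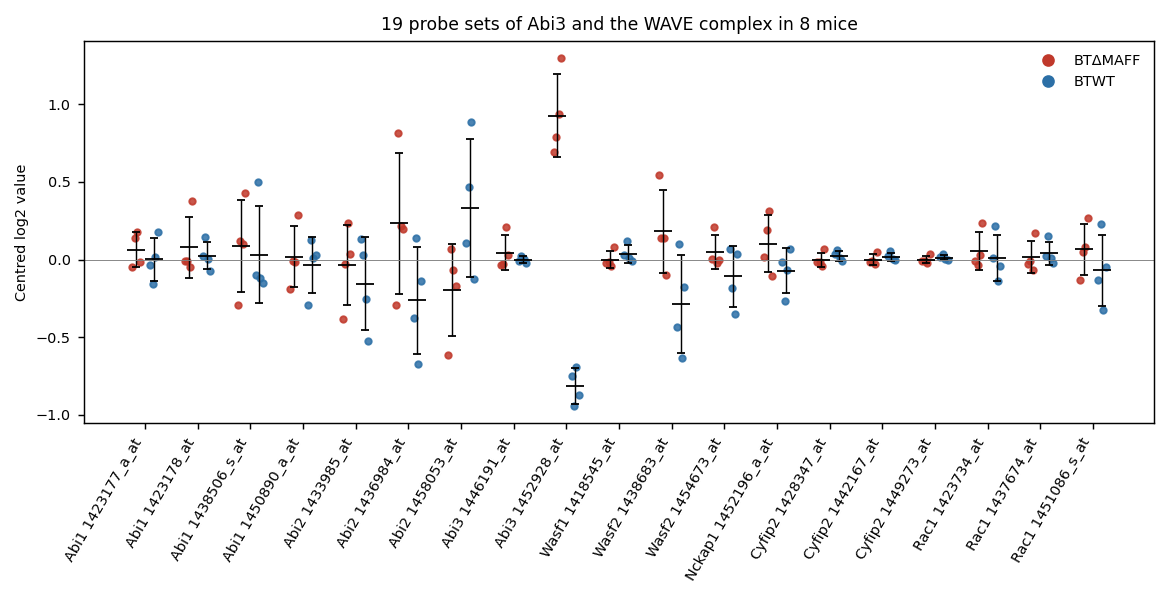
Centred log2 value (y axis) of each member probe set in each mouse, with BTΔMAFF left of BTWT, a point per mouse, a dash at the group mean and bars of 1 SD. Abi3 1452928_at, at 0.69 to 1.30 in BTΔMAFF and -0.94 to -0.69 in BTWT, is the only one of the 19 in which the groups do not overlap.

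Abi1 and Abi2 are the widely expressed adaptors that occupy the place of Abi3 in most cells. Abi1, on chromosome 2 from 22940073 to 23040241, has 4 probe sets, and their differences were 0.062 (SE 0.084) at 1423177_a_at, 0.054 (SE 0.10) at 1423178_at, 0.057 (SE 0.20) at 1438506_s_at and 0.051 (SE 0.12) at 1450890_a_at. Each difference was smaller than its standard error. At the most variable of them, 1438506_s_at, Abi1 stood at -0.30, 0.12, 0.10 and 0.43 in BTΔMAFF and at -0.10, 0.50, -0.12 and -0.15 in BTWT. BTWT replicate 2 and BTΔMAFF replicate 4, the arrays that stood apart, were the highest of all 8, and so they were at 1423178_at and 1450890_a_at. At 1423177_a_at, in contrast, BTWT replicate 2 was the lowest of all 8 at -0.16. The probe sets of Abi1 thus did not follow each other over the mice. Pearson's r over the 8 arrays was 0.67 to 0.76 among 1423178_at, 1438506_s_at and 1450890_a_at and -0.52 to -0.012 between these and 1423177_a_at, as a description over values that share the same arrays.

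Abi2, on chromosome 1 from 60405768 to 60481945, has 3 probe sets, and they did not agree in direction. At 1436984_at the values were -0.29, 0.81, 0.22 and 0.19 in BTΔMAFF and -0.38, 0.14, -0.67 and -0.14 in BTWT. The difference of 0.50 (SE 0.26) is 1.41-fold, with the BTΔMAFF mice spread over more than the difference and the groups overlapping. At 1458053_at the order was the other way, with -0.61, 0.068, -0.068 and -0.17 in BTΔMAFF and 0.10, 0.47, 0.89 and -0.13 in BTWT, a difference of -0.53 (SE 0.25). At 1433985_at the difference was 0.12 (SE 0.18). A direction for Abi2 as a gene is not given, because the 2 probe sets with the larger differences oppose each other.

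Wasf1 and Wasf2 encode WAVE proteins, the subunits that carry the domain which activates the Arp2/3 complex, and Wasf2 is the form commonly found outside the nervous system. After Abi3 and the opposed probe sets of Abi2, the largest difference among the members was that of Wasf2 at 1438683_at. Wasf2 lies on chromosome 4 from 133130531 to 133199748. It stood at 0.55, 0.14, 0.14 and -0.098 in BTΔMAFF, against -0.43, 0.098, -0.63 and -0.18 in BTWT. The groups overlapped only in that BTΔMAFF replicate 4 lay below BTWT replicate 2, again the arrays that stood apart. Wasf2 averaged 0.18 ± 0.27 in BTΔMAFF and -0.29 ± 0.32 in BTWT (SD, n = 4 mice each), a difference of 0.47 (SE 0.19), or 1.38-fold. The difference stayed between 0.35 and 0.60 when any 1 mouse was left out. The second Wasf2 probe set, 1454673_at, had the same sign with a smaller difference of 0.16 (SE 0.11), from 0.00081, 0.21, -0.022 and -0.00081 in BTΔMAFF and 0.069, -0.19, -0.35 and 0.033 in BTWT. There BTWT replicates 1 and 4 lay within the BTΔMAFF range.

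Wasf1, the WAVE form best known from brain, lies on chromosome 10 from 40883480 to 40938569. Its 1 probe set, 1418545_at, differed by -0.036 (SE 0.040), and the 8 mice lay within -0.039 and 0.12. That range is 1.11-fold.

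Nckap1 and Cyfip2 are the scaffold subunits, of which the Cyfip subunit receives Rac1. Nckap1, on chromosome 2 from 80500512 to 80581182, stood at 0.017, 0.19, 0.31 and -0.11 in BTΔMAFF and at -0.017, -0.27, -0.066 and 0.070 in BTWT. The groups overlapped, with BTΔMAFF replicate 4 below 3 of the 4 BTWT mice, and the difference was 0.17 (SE 0.11), or 1.13-fold. Cyfip2, on chromosome 11 from 46193849 to 46312859, has 3 probe sets, which differed by -0.026 (SE 0.032), -0.020 (SE 0.027) and -0.014 (SE 0.022). Their whole range over the 8 arrays was 1.08-fold at 1428347_at, 1.06-fold at 1442167_at and 1.04-fold at 1449273_at.

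Rac1, the GTPase that switches the complex on, lies on chromosome 5 from 143505481 to 143528031. At 1451086_s_at it stood at -0.13, 0.047, 0.080 and 0.27 in BTΔMAFF and at -0.13, 0.23, -0.33 and -0.047 in BTWT. The difference was 0.13 (SE 0.13), and the overlap was nearly complete. The other probe sets differed by 0.042 (SE 0.091) at 1423734_at and by -0.026 (SE 0.062) at 1437674_at. In all 3 probe sets of Rac1, BTΔMAFF replicate 4 and BTWT replicate 2 lay above the other 6 mice.

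**Figure D2:**
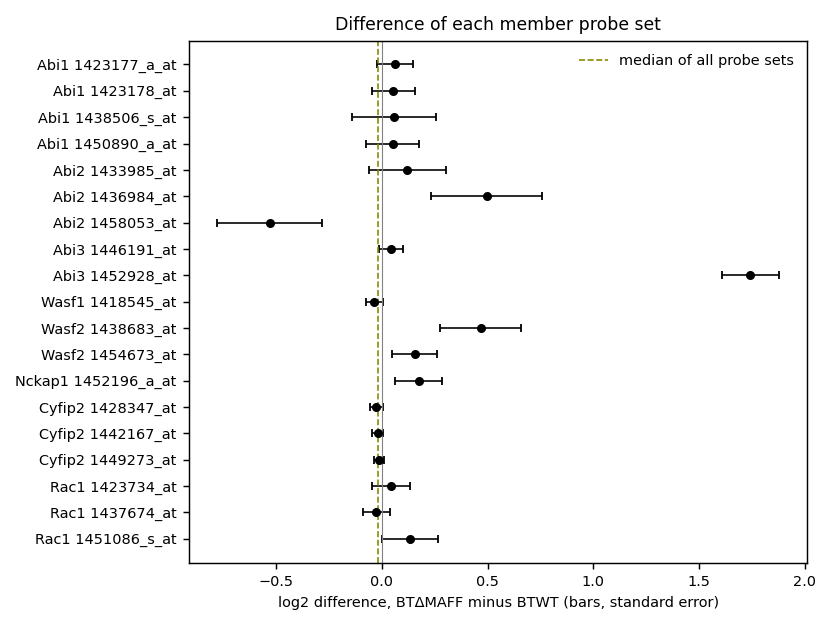
Log2 difference, BTΔMAFF minus BTWT (x axis), of each member probe set with its standard error from limma, grouped by gene, with a dashed line at the median of all probe sets. Abi3 1452928_at stands at 1.74, the other 18 probe sets lie between -0.53 and 0.50, and Abi2 has probe sets at both of these ends.

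Set side by side, 13 of the 19 member probe sets had a positive difference and 6 a negative one. Their median was 0.054, or 0.052 without Abi3 1452928_at, against -0.018 over all probe sets. The median size regardless of sign was 0.057 among the members and 0.048 over all probe sets. Apart from Abi3 1452928_at, no member probe set differed by more than 0.53 in size.

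The members fell into 2 kinds by how they varied over the mice. In 5 of the 19 probe sets, the values followed the array medians closely, with r of at least 0.95 over the 8 arrays. These were Wasf1, the 3 probe sets of Cyfip2, and Rac1 1437674_at, and the widest of them spanned 1.18-fold. The threshold of 0.9 was chosen after the values were seen, and the next member below it, Abi1 1423178_at, was at 0.81. Of all probe sets, 38.2% reached 0.9. A probe set of this kind rises and falls with the offset of its array, so a difference near 0 there says little about the gene. Its range can still exceed that of the medians. Rac1 1437674_at ran from -0.068 to 0.17, against -0.030 to 0.041 for the medians. The remaining 14 probe sets, among them both of Abi3, both of Wasf2 and the 1 of Nckap1, varied in other ways, and Nckap1 ran opposite to the medians with r = -0.88. Abi3 1452928_at was at r = -0.26, and its SD over the 8 arrays exceeded that of 99.3% of all probe sets. In 10 of the 19 member probe sets, BTΔMAFF replicate 4 and BTWT replicate 2 lay above the other 6 mice, which held for 46% of all probe sets, and Abi3, Wasf2 and Nckap1 were not among them.

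**Figure D3:**
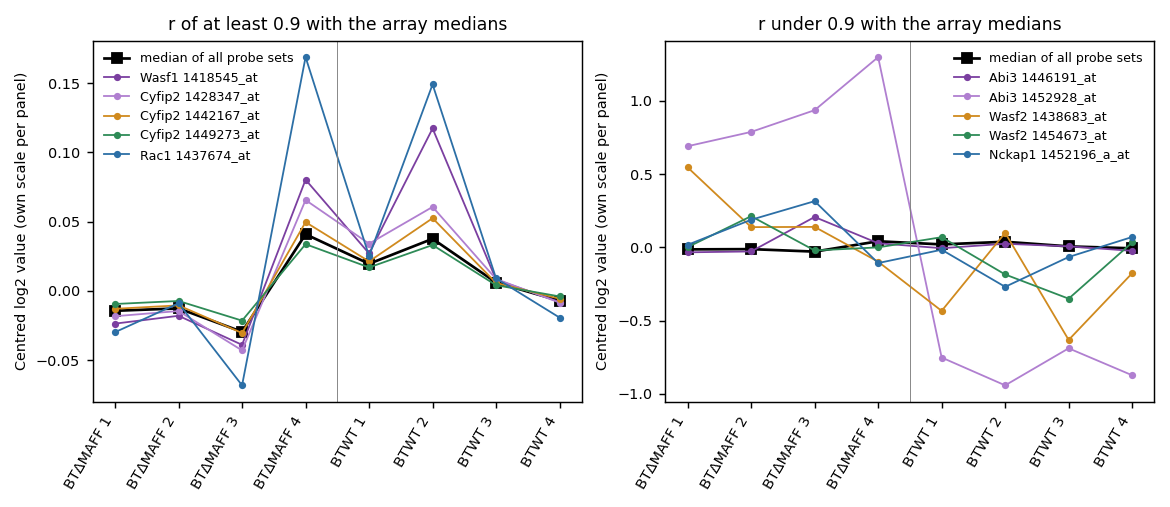
Centred log2 value (y axis) of member probe sets over the 8 arrays (x axis, BTΔMAFF left of BTWT), split by whether r with the array medians was at least 0.9. The left panel holds all 5 member probe sets at or above it and the right panel those of Abi3, Wasf2 and Nckap1, each panel on its own scale. Black squares are the medians, lines join the values of a probe set, and the order of mice within a group is arbitrary. The probe sets on the left trace the medians and are highest in BTΔMAFF 4 and BTWT 2.

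The neighbours of Abi3 on chromosome 11 were read to see whether the difference extended along the chromosome. Gngt2, which encodes a G protein gamma subunit, lies from 95841772 to 95845734 and overlaps the annotated span of Abi3 by 705 bases. It stood at 0.13, -0.061, 0.37 and 0.12 in BTΔMAFF and at -0.0071, 0.0071, -0.027 and -0.046 in BTWT. BTΔMAFF replicate 2 was the lowest of all 8 mice and the other 3 lay above every BTWT mouse, so the groups overlapped, and the difference of 0.16 (SE 0.084) had an adjusted p of 0.828 from limma. Zfp652, a zinc finger protein gene, went the other way at its most variable probe set, by -0.41 (SE 0.13, adjusted p = 0.780 from limma) with no overlap between the groups, and its other 2 probe sets differed by -0.062 and -0.015. The 4 probe sets of B4galnt2, a glycosyltransferase gene of the intestinal epithelium, differed by -0.017 to 0.13. Those of Ngfr, Zfp652os and 4833417C18Rik followed the array medians with r of at least 0.95. None of these 6 neighbours passed the adjusted threshold, and the 0.41 of Zfp652 was the largest difference among them in either direction.

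Actin regulators around the WAVE complex, formins and filament turnover factors included, were read from 6 lists with 132 genes outside the members. Of these, 122 were measured. Each gene was represented by its probe set of largest SD. By limma, 8 of the 122 (6.56%) were higher in BTΔMAFF at an unadjusted p under 0.05 and 5 (4.1%) were lower, against 3.37% and 2.35% of all 18193 genes, and 0 passed the adjusted threshold. The median difference was -0.010 in the lists and -0.019 over all genes. Fewer of the listed genes followed the array medians, 16.4% against 34.4% of all genes, and the shares past the thresholds are not read as particular to the lists. With the mean of all probe sets of a gene in place of 1, 14 of the 122 were higher and 1 of the 122 lower. Of all genes, 3.96% were higher and 2.81% lower by the same means. These counts too are not read as particular to the lists.

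Within the complex itself, Brk1, the small subunit that completes it, differed by 0.11 (SE 0.11, adjusted p = 0.828 from limma). Wasf3, another WAVE protein, and Nckap1l, the hematopoietic form of Nckap1, differed by -0.025 and -0.016 and followed the array medians with r of 0.94 and 0.997. Of the Arp2/3 complex, the nucleator that WAVE turns on, 6 of 10 subunits were measured. The 1 that passed the unadjusted threshold was Arpc2, lower by 0.57 at a probe set that its other probe set did not follow in sign. Among the 17 other nucleation-promoting factors, Wasl, the N-WASP that acts downstream of Cdc42, was lower by 0.58 (SE 0.20), with 2 of its 4 probe sets of that sign.

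Upstream of WAVE, 41 genes were measured from the list of Rac exchange factors and GTPase-activating proteins, which also holds factors for the related GTPase Cdc42, with 1 higher and 1 lower. Dock8, an exchange factor for Cdc42 that is known from leukocytes, was at 0.46, 0.40, 0.29 and 0.82 in BTΔMAFF and at -0.32, -0.29, -0.72 and -0.41 in BTWT. Every BTΔMAFF mouse lay above every BTWT mouse, by a mean of 0.93 (SE 0.14, adjusted p = 0.207 from limma), with all 4 of its probe sets of that sign. Farp2, an exchange factor for Rac, was lower by 0.47, with 1 of its 2 probe sets of that sign.

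Among the 14 measured partners that bind Abi or WAVE proteins, 2 were higher and 2 lower. Grb2, an adaptor of receptor tyrosine kinases, was higher by 0.53, and Eps8l3, a relative of the Abi1 partner Eps8, by 0.33. Nck1 and Nck2, adaptors that recruit WAVE and N-WASP to phosphorylated receptors, were lower by 0.74 (SE 0.26) and 1.25 (SE 0.40, adjusted p = 0.759 from limma). The groups overlapped in both Nck1 and Nck2, and all 3 probe sets of Nck1 and 2 of 3 of Nck2 had that sign. The 41 measured formins and filament turnover factors had 5 higher and 0 lower. Ssh1, a phosphatase that activates cofilin, was higher by 1.11 (SE 0.34, adjusted p = 0.733 from limma) with overlapping groups. Cobl, a nucleator at the microvillus base, was higher by 0.84, Capzb, a filament capping protein, by 0.66, and Coro1c, a coronin, by 0.42. The groups did not overlap in these 3. All probe sets of Cobl and Capzb had that sign, against 3 of 4 for Coro1c and 3 of 4 for Ssh1. The fifth, outside the naming rule, was the depolymerizing factor Dstn, at 0.11.

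Of the 12 list genes named for passing the unadjusted threshold, Dock8, Grb2, Nck2, Ssh1, Cobl and Coro1c passed it in all 8 fits without 1 mouse. Wasl did not pass without BTWT replicate 2 or 3, and Arpc2 without BTΔMAFF replicate 3 or 4 or BTWT replicate 2 or 3. Capzb did not pass without replicate 1 or 2 of either group, and Eps8l3 without BTΔMAFF replicate 3 or 4 or BTWT replicate 1 or 3. Farp2 and Nck1 each lost the call in 5 of the 8 fits, without BTΔMAFF replicate 1, 2 or 3 or BTWT replicate 2 or 4.

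**Figure D4:**
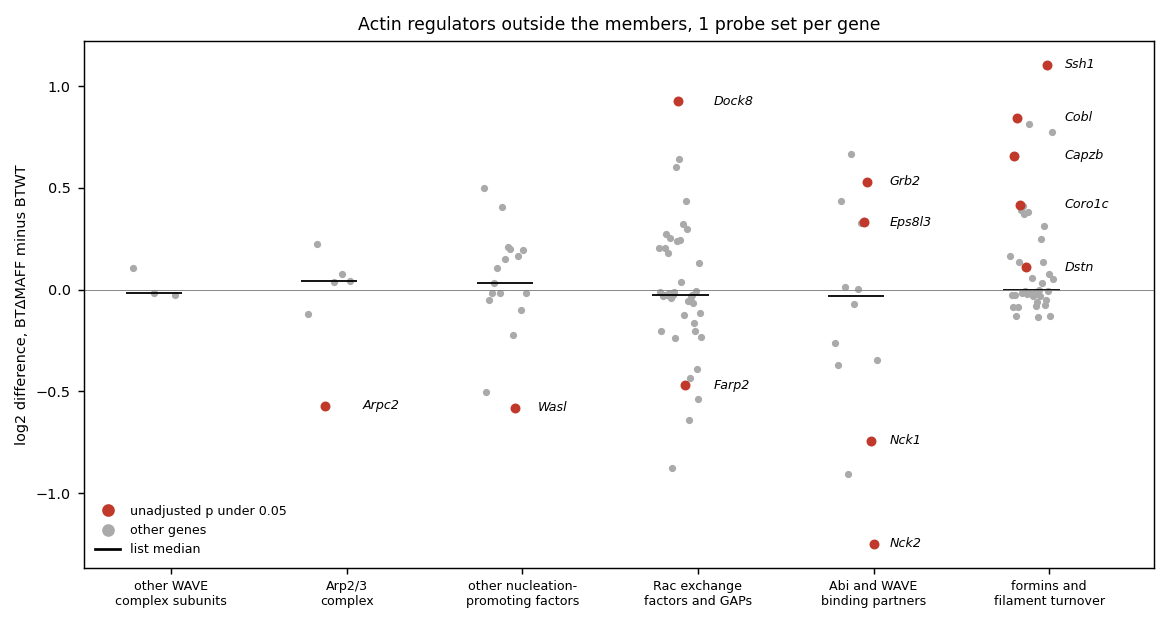
Log2 difference, BTΔMAFF minus BTWT (y axis), of 122 genes in 6 lists around the WAVE complex (x axis), a point per gene at its most variable probe set, with the list median as a bar. The 13 genes at an unadjusted p under 0.05 are named, 8 above 0 and 5 below, and the medians lie between -0.033 and 0.041.

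The genes whose values were most like those of Abi3 1452928_at over the 8 arrays were Phf14 (Pearson's r 0.990), Per3 (0.987), Ankrd12 (0.985), Pkdcc (0.961) and Gsdmd (0.954). In all of them every BTΔMAFF mouse lay above every BTWT mouse, and likeness over all 8 arrays favours such genes. Per3, a period gene of the circadian clock, was the closest to Abi3 in size. It stood at 0.71, 0.72, 0.76 and 1.60 in BTΔMAFF and at -0.82, -0.99, -0.87 and -0.71 in BTWT, with BTΔMAFF replicate 4 highest as in Abi3. Over the deviations from the group means, which leave the group difference out, the most alike were Phf14 (0.969), Gm5817 (0.955), Tceanc (0.955), Ccdc90b (0.941) and Vps35l (0.941). Phf14, which encodes a PHD finger protein, was the gene on both lists, although its own difference was 0.33, smaller than that of Abi3. These likenesses rest on 8 mice and are given without a test. When any 1 mouse was left out, 2 or 3 of the 5 genes stayed among the 5 most alike over the arrays, and 0 to 3 over the deviations.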

How the data were processed

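Colonic epithelial cells of 8 mice, 4 with BTΔMAFF and 4 with BTWT as the labels name them, were profiled on Affymetrix mouse genome arrays. Affymetrix Expression Console is listed in the submitters' processing notes and GeneSpring in the paper's methods. For background correction and normalization, the sources used here give no settings. The authors deposited log2 values for 45101 probe sets, in which each row's median over the 8 arrays is 0, and the centring removes the level of each gene and with it any filter on dim probe sets. The number of arrays limits the precision. After 64 control probe sets were left out, 45037 were fitted in limma 3.58.1 (R 4.3.3) with lmFit and eBayes, BTΔMAFF minus BTWT, with Benjamini-Hochberg adjustment over all of them, and the fit was tested on simulated data. The methods' test, an unpaired comparison with equal variances, was run on the same values. Gene names came from the platform annotation, which gives 1 symbol to 34945 probe sets, several to 932 and none to 9160, and locations from RefSeq, build GRCm38.p6. Probe sets of a gene were kept apart, except that in the lists the one with the largest SD over the 8 arrays stood for its gene. A further list of related genes is not reported here. The members and the lists were chosen with earlier results of these data known. All member probe sets are named, and in each list up to 4 genes with the smallest unadjusted p under 0.05, the 5 genes most like Abi3 by either correlation, and the 3 measured genes on each side of Abi3. Each group holds 4 mice by the study's legend, 1 array each. The p-values set a group difference against the spread between these mice, which limma moderates with that of all probe sets. Alternatives were quantile normalization, centring of each array on its median, a replicate block, array weights, the more variable part of the probe sets (SD above the median SD), the mean of all probe sets of a gene, Spearman correlation, and fits without single mice or without BTΔMAFF replicate 4 and BTWT replicate 2 together.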

Additional observations from a re-analysis of the deposited data

Results flagged for a closer look

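Within 38 groups of 4 mice, 19 member probe sets in each of 2 groups, 3 had a mouse far from the other 3, by a gap that took up most of the group's whole range (Dixon's test). Chance alone flags about 1 in 20 such groups. At Abi1 1423178_at, BTΔMAFF replicate 4 stood at 0.37 while the other BTΔMAFF mice lay between -0.046 and -0.0065. At Abi1 1438506_s_at, BTWT replicate 2 stood at 0.50 while the other BTWT mice lay between -0.15 and -0.10. These are the arrays that stood apart from the rest, and Abi1 showed no group difference larger than its standard error at either probe set. At Wasf2 1454673_at, BTΔMAFF replicate 2 stood at 0.21 and the other BTΔMAFF mice between -0.022 and 0.00081, and without that mouse the Wasf2 difference there was 0.10. No mouse stood out in this way within either group at Abi3 1452928_at.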

How the results depend on the processing

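Over its alternatives the Abi3 1452928_at difference kept its sign, at 1.62 to 1.82 when 1 mouse was left out and 1.53 with array weights, which gave BTΔMAFF replicate 2 and BTWT replicate 3 weights of 4.36 and 4.68, against at most 1.33 elsewhere. Of the 19 member probe sets, 11 kept their sign throughout, and of 247 recomputed member differences 3 moved by more than the replicate SD, all with array weights, to 1.02 for Abi2 1436984_at, 0.35 for Wasf2 1454673_at and the 1.53 of Abi3. In limma, 0 probe sets passed the adjusted threshold in either direction, against 1 higher with each array centred, 338 higher and 172 lower with array weights, 16 and 9 in the more variable part of the probe sets, and 2 higher without BTΔMAFF replicate 4 and BTWT replicate 2, an alternative added for these counts after seeing the data. Leaving out 1 mouse gave 0 to 5 higher and 0 to 1 lower, the 5 without BTΔMAFF replicate 4. At the fold of the legend and an unadjusted p, array weights gave 402 higher and 274 lower, and leaving out 1 mouse 119 to 204 higher, the 204 without BTΔMAFF replicate 4, and 110 to 147 lower. Of the 122 list genes, 8 higher and 5 lower at an unadjusted p, array weights gave 28 higher and 19 lower, the mean of all probe sets 14 and 1, leaving out both arrays that stood apart 11 lower, and leaving out 1 mouse 6 to 11 higher and 2 to 7 lower, with 2 lower without BTΔMAFF replicate 3 and 3 without BTΔMAFF replicate 2, BTWT replicate 3 or BTWT replicate 4. By Spearman correlation 1 and 2 of the 5 genes most like Abi3 stayed over the arrays and the deviations, and without 1 mouse 2 to 3 and 0 to 3. The 15 named list genes, 12 of them with a call, were recomputed 238 times. In 200 of these the call, or its absence, was unchanged, while 36 lost a call, 2 gained one and 0 reversed one. The 3 values that changed sign were of genes without a call. They were Nckap1l with quantile normalization and with each array centred, and Wasf3 without BTWT replicate 2. The numbers 1 to 4 did not pair the samples, with correlations of same-numbered deviations of 0.39, -0.040, 0.033 and -0.27, and 2 of 8 samples correlated best with their own number. The replicate block left Abi3 at 1.74, gave 0 adjusted calls and 9 list genes higher and 8 lower, and Capzb no longer passed the unadjusted threshold. The cause of these shifts was not tested. With values centred by probe set, a low or absent transcript cannot be told from a stable one.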
